A study of Homo sapiens with 8 samples.

Results

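Patches of single-stranded DNA lying deep inside very long genes were examined in HEK293T cells, an established human embryonic kidney line. The peak lists of the 2 untreated (control) libraries were merged over chromosomes 1 to 22 and X, and the 15177 merged regions that both lists overlapped were kept. A region was taken when its midpoint lay inside a RefSeq protein-coding gene of at least 200 kb and more than 5 kb from either end of any protein-coding gene. This gave 314 regions, 2.07% of all, in 155 of the 1396 long genes (11.1%). Of the other regions, 3950 lay equally far from gene ends inside shorter genes, 9749 within 5 kb of a gene end and 1164 outside genes. No measured level entered this choice, apart from the requirement of a peak in both controls.

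The study used KAS-seq, in which N3-kethoxal reacts with unpaired guanines in living cells, so that the labelled DNA can be pulled out and sequenced. Control cells stood in plain medium, and treated cells received 0.5 mM vitamin C (ascorbic acid) for 10 min, before both were labelled with 5 mM N3-kethoxal for 10 min. Each condition had 2 labelled libraries with a peak list each and 2 input libraries, which are not analysed here. No genotype difference is given between the groups, the cell line field carried a different number in each sample while every title named HEK293T, and the labels do not say whether replicates were separate cultures, so the p-values cover the scatter of these libraries alone, which could be technical.

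A gene is transcribed by RNA polymerase II, which melts a short bubble of DNA as it moves, and polymerases paused near the start of a gene keep such bubbles open longest. Very long genes consist mostly of intron, and many of them encode cell adhesion proteins, receptors and channels of nerve cells, or regulators of transcription. Their introns hold internal promoters, enhancers and nested genes for small RNAs, some of them read by RNA polymerase III, and also stretches of repeats and chromosomal fragile sites.

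The lists of control replicates 1 and 2 held 30351 and 24111 peaks, against 9816 and 9896 for vitamin C replicates 1 and 2. Read totals were not given, and the number of fragments at each summit was solved from the authors' fold and p. The background came to 0.817 and 0.849 fragments per position in control replicates 1 and 2. In vitamin C replicates 1 and 2 it came to 1.225 and 0.871. The weakest peaks rested on 6, 6, 10 and 7 fragments and the median peaks on 13, 14, 22 and 15, in the same order. Fragment numbers of separate libraries, here and below, thus do not share a scale, and those of vitamin C replicate 1 run highest. Of 8 genes named in studies of HEK293 cells, 4 had a peak at a gene end in both controls, and of 10 genes of liver, muscle, blood, brain and other tissues none had one in any library.

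Some regions sat on starts inside the gene, and their sequences show how unlike those starts were. A RefSeq promoter table (GRCh38.p14) gives 250 bases before and 50 after annotated starts, and 303 of the 314 regions lay on chromosomes it covers. Of these, 23 (7.59%) lay within 1 kb of such a start, compared with 4.54% of the deep regions of shorter genes and 2977 of 14855 control regions. A start itself lay inside 7 regions, in GPC6, TCF4, RARB, ROBO1, PRIM2, NFIB and, for the noncoding LINC00630, in ARMCX5-GPRASP2. The windows below are those of the 3 regions that both treated libraries also held and of the strongest 2 of the 3 that neither held, read 5' to 3' on the gene's strand, with the GC box (GGGCGG on either strand) in capitals.

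ROBO1, an axon guidance receptor, chr3:79019410-79019709, minus strand, in both vitamin C libraries: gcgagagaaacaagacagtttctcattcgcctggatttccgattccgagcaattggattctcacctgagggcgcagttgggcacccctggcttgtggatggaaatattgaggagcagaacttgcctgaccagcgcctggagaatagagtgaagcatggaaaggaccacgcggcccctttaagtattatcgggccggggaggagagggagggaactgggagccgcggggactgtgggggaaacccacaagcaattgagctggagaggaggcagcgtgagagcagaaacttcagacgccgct
LINC00630, a long noncoding RNA, chrX:102768903-102769202, plus strand, in both vitamin C libraries: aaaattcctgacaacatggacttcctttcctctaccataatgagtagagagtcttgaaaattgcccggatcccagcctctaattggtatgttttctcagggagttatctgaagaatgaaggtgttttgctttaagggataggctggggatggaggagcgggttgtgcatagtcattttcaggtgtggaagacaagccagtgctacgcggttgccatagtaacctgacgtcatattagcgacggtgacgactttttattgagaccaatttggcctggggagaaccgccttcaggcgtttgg
NFIB, a nuclear factor I transcription factor, chr9:14314905-14315204, minus strand, in both vitamin C libraries: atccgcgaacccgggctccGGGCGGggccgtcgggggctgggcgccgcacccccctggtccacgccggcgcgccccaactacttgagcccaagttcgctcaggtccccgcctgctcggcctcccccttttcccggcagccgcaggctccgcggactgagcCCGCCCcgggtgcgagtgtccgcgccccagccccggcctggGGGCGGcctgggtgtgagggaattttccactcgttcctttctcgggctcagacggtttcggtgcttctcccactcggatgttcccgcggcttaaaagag
PRIM2, the large subunit of DNA primase, chr6:57317380-57317679, plus strand, in neither: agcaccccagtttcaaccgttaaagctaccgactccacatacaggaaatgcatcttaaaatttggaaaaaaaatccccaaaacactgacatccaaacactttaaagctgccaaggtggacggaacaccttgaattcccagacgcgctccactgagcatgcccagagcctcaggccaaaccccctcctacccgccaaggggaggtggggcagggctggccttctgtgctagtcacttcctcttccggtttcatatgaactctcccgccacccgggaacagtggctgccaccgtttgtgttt
GPC6, a glypican of the cell surface, chr13:93226557-93226856, plus strand, in neither: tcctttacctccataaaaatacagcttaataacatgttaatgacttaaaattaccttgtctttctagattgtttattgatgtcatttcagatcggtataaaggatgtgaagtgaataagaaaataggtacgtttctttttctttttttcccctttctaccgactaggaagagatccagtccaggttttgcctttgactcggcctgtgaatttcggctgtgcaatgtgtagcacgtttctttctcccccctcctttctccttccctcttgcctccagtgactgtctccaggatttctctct

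GC content was 56.7% in the ROBO1 window, 47.0% for LINC00630, 71.7% for NFIB, 53.0% for PRIM2 and 40.0% for GPC6, around a median of 58.7% over 35116 promoters of the table. NFIB held 3 GC boxes and the others shown held none, while 45.0% of all promoters hold at least 1 on either strand. The motif TATAAA (either strand) was present in the GPC6 window and in 11.5% of all promoters. CCAAT (either strand) was found in those of ROBO1 and LINC00630 and in 34.6% of all. The regions covered all 300 bases of the ROBO1, LINC00630 and GPC6 windows, 85 bases of PRIM2 and 57 bases of NFIB. Those 57 are the last bases printed for NFIB, so its 3 GC boxes lay outside the region. The starts inside these regions thus ranged from rich to poor in GC, with no motif common to them all.

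Single-stranded regions were sparse inside long genes. The deep parts of genes of at least 200 kb spanned 566.98 Mb and held 0.554 regions per Mb, against 7.65 per Mb over 516.67 Mb in the deep parts of shorter genes. Most host genes held a single region (97 of 155), 36 held 2 and 22 held at least 3. Hosts were not longer than other long genes, with a median length of 308.89 kb against 319.98 kb. The longest host was ROBO2 (1743.29 kb), an axon guidance receptor like ROBO1, and 32 of the 314 genes of at least 500 kb were hosts. A peak at an end of the gene in both controls was found for 24 of the 155 hosts (15.5%), 8.94% of the 1241 long genes without a deep region, and 9.67% of all long genes. Most hosts therefore had deep regions without a reproducible peak at either annotated end.

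Host genes were counted in lists of gene roles, beside 11.1% of all long genes being hosts. Regulators of transcription and chromatin had 20 hosts among 61 long genes (32.8%), among them ANKRD11, a chromatin-associated regulator of brain and bone development. Genes of RNA binding and processing had 5 of 19 (26.3%), led by EIF4G3, a scaffold of translation initiation, and RBFOX2, a splicing factor. Cell adhesion and axon guidance genes had 3 hosts of 55 (5.45%), namely SLIT2, ROBO1 and ROBO2, and ion channels and receptors 3 of 40, among them CACNB2, a calcium channel subunit, and CHRM3, a muscarinic acetylcholine receptor. Common fragile site genes had 3 of 28 (10.7%), among them IMMP2L, a mitochondrial peptidase subunit. Ubiquitin and trafficking genes had 6 of 39 (15.4%), cytoskeleton and scaffold genes 6 of 47 (12.8%), and GTPase and kinase signalling genes 8 of 69 (11.6%). The lists left out some hosts of these roles, such as SPON1, a matrix protein of axon guidance, and the channel gene KCNQ1. The shares thus hold for the listed genes alone. No gene is called particular to a list from these shares, since the lists were drawn up with earlier results of the data known.

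One gene stood apart in number. SLIT2, which encodes the secreted axon guidance protein that binds ROBO receptors, held 63 of the 314 regions (20.1%), and the next gene held 7. SLIT2 lies on the plus strand at chr4:20251905-20620561 and spans 368.66 kb. The midpoints of its regions ran from 9.72 to 331.38 kb from the annotated start, with a median gap of 2.25 kb between neighbours, and they covered 44.69 kb, 12.1% of the gene. When the gene was divided into 4 equal stretches, the regions numbered 25, 24, 12 and 2 from the start to the end. Joining regions less than 5 kb apart gave 8 clusters with 56 of the regions, the largest with 16 regions over 32.54 kb. None lay within 1 kb of a start in the promoter table. Among all control regions the SLIT2 regions were of ordinary strength. Their median authors' fold was 6.65 in control replicate 1 and 6.70 in control replicate 2, against 7.07 and 6.61 for all. They were stronger than the other 251 deep long-gene regions, whose medians were 5.505 and 5.407.

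The number of peaks deep inside SLIT2 was 101 and 89 in the controls against 38 and 35 with vitamin C. These groups did not overlap, and the log2 ratio of the means was -1.38 (exact permutation test, two-sided, p = 0.333, the lowest that 2 against 2 libraries allow), beside -1.47 for all peaks of the lists (exact permutation p = 0.333). SLIT2 made up 11.3% and 12.4% of the deep long-gene peaks of the controls and 19.1% and 16.7% of those of the treated libraries, a difference of 6.07 points (exact permutation p = 0.333). Of its 63 regions, both treated libraries overlapped 17 with a peak, 1 of them overlapped 21, and 25 were met by none. The region of highest fold, at chr4:20522245-20523711, had folds of 15.6 and 16.1 in the controls against 10.9 and 8.21 in the treated libraries, from 39, 56, 41 and 30 fragments.

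**Figure D1:**
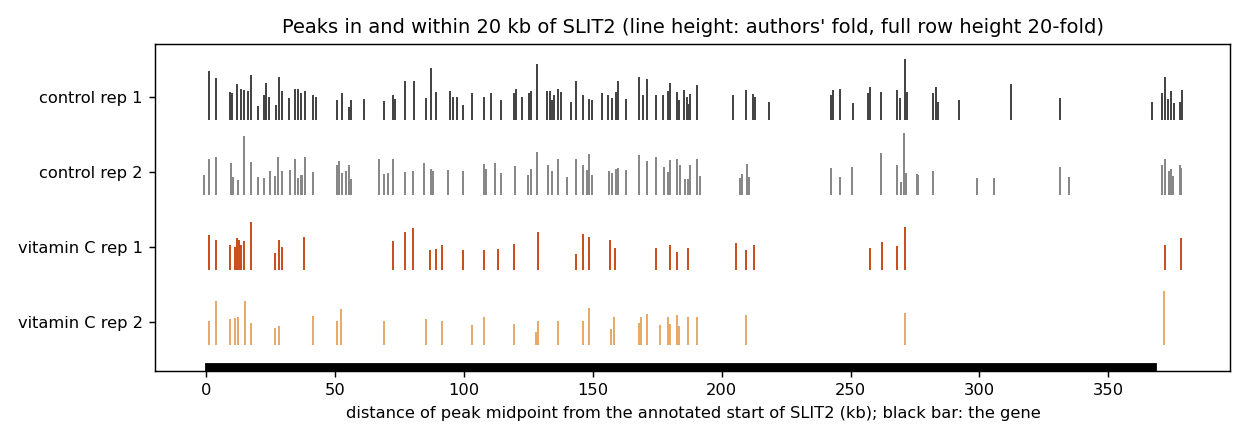
Peaks along SLIT2 in the 4 labelled libraries, by distance from the annotated gene start in kb on the horizontal axis, with 1 row per library; the height of a line is the authors' fold of that peak, the full row standing for 20-fold, and the black bar at the bottom is the gene. In all 4 rows most peaks lie within the first 200 kb of the gene, with 101 and 89 deep peaks in the controls against 38 and 35 with vitamin C.

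Outside SLIT2, regions were more often alone. There, 193 regions had no neighbour within 5 kb and 58 lay in 24 clusters in 22 genes. Of the 206 regions outside SLIT2 whose gene has a strand in the promoter table, 64, 42, 37 and 63 lay in 4 equal stretches from the start to the end of the gene. They were thus more numerous toward both sides than in the middle. In EPB41L4A, the gene of a FERM-domain protein, 4 regions covered 6.91 kb within 8.39 kb, next to the noncoding gene EPB41L4A-AS1. Of these, 3 were met in both vitamin C libraries and 1 in a single library. LRRC37A2, of a family of leucine-rich repeat genes duplicated on chromosome 17, held 7 regions, of which 1 was met in both libraries, 4 in 1 and 2 in neither. Its copies resemble one another, so reads there could be placed at the wrong copy.

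The regions were weaker and narrower than the rest. Their median width was 520 bp, against 572 bp in shorter genes and 623 bp near gene ends. Control strength was taken as a region's percentile of the authors' fold within each control list, averaged over both. Its median was 42.6 for the 314 regions, 48.9 in shorter genes and 63.3 near gene ends. Within the 314 it was 58.7 in SLIT2 and 39.2 for the other 251. When all control regions were put in 10 equal bins of strength, the weakest bin held 78 of the 314 (24.8%) and the strongest 13 (4.14%). The median region rested on 17 fragments in each control, no fewer than the 17 and 16 of all control regions. The median local background was 1.635 and 1.907 fragments per position for the 314, against 1.553 and 1.271 for all. The lower strength was thus one of fold and not of fragment number. Peaks deep in long genes were also found less often in the other replicate of the same condition than peaks near gene ends. The shares were 35.9% and 44.6% for the control lists, then 44.7% and 42.1% for the treated lists. Near gene ends they were 59.0%, 73.3%, 64.9% and 66.7%, in the same order. Deep peaks of shorter genes lay between these values in every list, at 43.1%, 56.4%, 48.5% and 48.3%. A share below that of gene ends was thus not particular to long genes.

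A set of weak regions sat on high local background, which the authors' files give through fold and p. At 48 of the 314 regions (15.3%) at least 5 fragments per position were expected in both controls, compared with 4.79% in shorter genes, 1.68% near gene ends and 3.02% of all control regions. This limit was chosen after the values were seen. Most fragments stood at PPP2R2C, the gene of a regulatory subunit of protein phosphatase 2A, at chr4:6511510-6512580. The controls had 125 and 113 there over expected 35.0 and 38.1, with folds of only 3.50 and 2.91. Vitamin C replicate 2 had 142 fragments there and replicate 1 had no peak. The highest background was at MICAL3, which encodes an actin-oxidising enzyme, with 42.8 and 41.3 fragments expected. There, 85 and 88 fragments gave folds of 1.96 and 2.10. Whether extra genome copies, repeats or input coverage lie behind these backgrounds was not tested. Of the 48 regions, 21 (43.8%) were met in both vitamin C libraries, against 59 of the other 266 (22.2%). The same contrast was present in all control regions (53.8% against 32.5%), in shorter genes (54.0% against 22.3%) and near gene ends (61.0% against 35.7%). Outside genes it was absent (41.4% against 42.0%).

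The comparison with vitamin C asks what short exposure to it does to these patches. Control replicates 1 and 2 had 894 and 718 peaks deep in long genes, and vitamin C replicates 1 and 2 had 199 and 209. The means were 806 ± 124 and 204 ± 7.07 (SD, n = 2 each), with groups that did not overlap, and the log2 ratio was -1.98 (exact permutation p = 0.333). The number of long genes with at least 1 deep peak was 346 and 308 against 119 and 135, a log2 ratio of -1.36 (exact permutation p = 0.333). All peaks were fewer in the treated lists. Deep peaks of shorter genes made up 31.5% and 30.2% of the control lists but 23.0% and 23.4% of the treated ones. That was a difference of -7.67 points (exact permutation p = 0.333). The deep long-gene peaks likewise formed a smaller share of each treated list. That share was 2.95% and 2.98% in the controls against 2.03% and 2.11% with vitamin C, a difference of -0.892 points (exact permutation p = 0.333), and -0.912 points without SLIT2. When every list was limited to its 9816 peaks of lowest q, the long-gene differences turned round. They became a log2 ratio of 0.131 for the number, 0.196 for the genes and 0.178 points for the share. Their direction thus depended on the length of the lists.

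**Figure D2:**
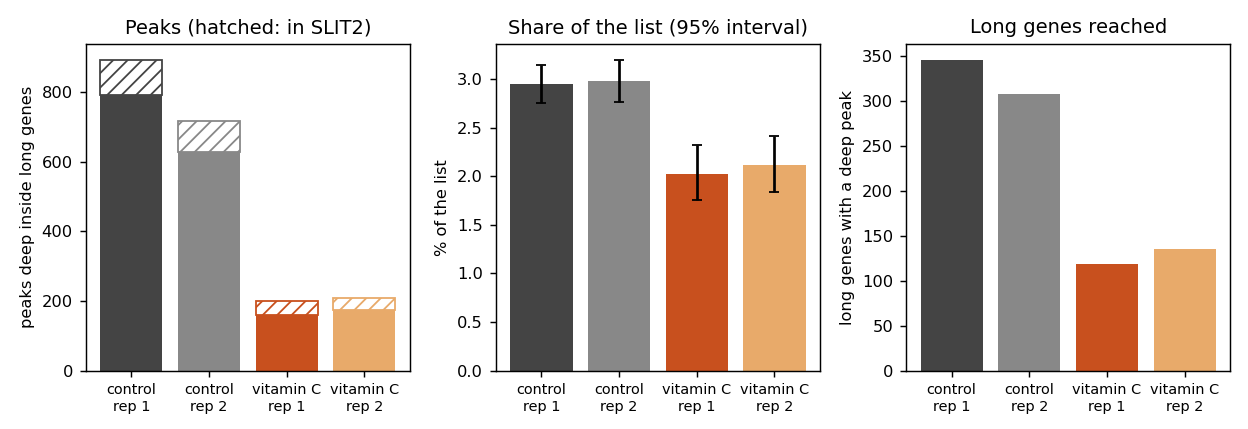
Number of peaks deep inside long genes, and their share of the peak list in percent with exact 95% binomial intervals (counting error only), in the 2 control and 2 vitamin C libraries. Counts are 894 and 718 in the controls against 199 and 209 with vitamin C, and the shares 2.95% and 2.98% against 2.03% and 2.11%.

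The deep peaks of each library were also measured in size. Median width was 305 and 317.5 bp in the controls and 296 and 327 bp with vitamin C, a difference of the means of 0.25 bp (exact permutation p = 1.0). Median fold was 5.47 and 5.03 against 5.50 and 5.42, a difference of 0.212 (exact permutation p = 0.667). The treated values lay on both sides of the control values for width, so no order could be read.

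Among the 314 control regions, 80 (25.5%, exact 95% interval 20.8% to 30.7%, counting error only) were overlapped by a peak in both vitamin C libraries, beside 33.1% of all control regions. A further 74 (23.6%) were met in 1 library, beside 24.9% of all, and 160 (51.0%) in neither, beside 42.0% of all. By library, 113 (36.0%) were met in vitamin C replicate 1, beside 46.4% of all, and 121 (38.5%) in replicate 2, beside 44.7% of all. Deep regions of shorter genes were met in 38.0% and 36.2% of cases, so the difference was -2.04 points in 1 library and 2.36 points in the other (exact sign-flip p = 1.0). Regions near gene ends were met in 49.6% and 47.4%, which put the long-gene regions 13.6 and 8.91 points lower (exact sign-flip p = 0.5, the lowest that 2 libraries allow). Against shorter genes the sign of the difference changed between the libraries, and against gene ends it was negative in both. With lists of 9816 peaks each, the mean difference from gene ends was 0.624 points, and 66.7% of the 81 regions then left were met in both libraries.

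Strength went with retention. From the weakest to the strongest bin, the share of the 314 regions met in both vitamin C libraries was 17.9%, 14.6%, 12.2%, 18.2%, 6 of 30, 25.9%, 35.0%, 38.5%, 61.1% and 100.0%. The strongest bin held 13 regions, all met in both (exact 95% interval 75.3% to 100.0%), and shorter genes had 93.4% there. Deep regions of shorter genes, weighted to the same bins as the 314, were met in both libraries in 23.0% of cases. Regions near gene ends were met in 23.2%, against 25.5% for the 314. The gap to gene ends was thus not seen in bins of equal control strength, but these bins do not match local background. In the weakest bin, 37 of the 78 regions were of high local background, of which 13 were met in both, compared with 1 of the other 41. Near gene ends, 88 of the 727 regions of that bin were of high local background, with 33 met in both, against 53 of the other 639. In shorter genes these were 122 of 589, with 42 met in both, against 45 of the other 467. Over all control regions of that bin, 101 of 292 with high local background were met in both, against 106 of the other 1226. Regions met in both had medians of 28 fragments in each control, and those met in neither 13.5 and 14.

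**Figure D3:**
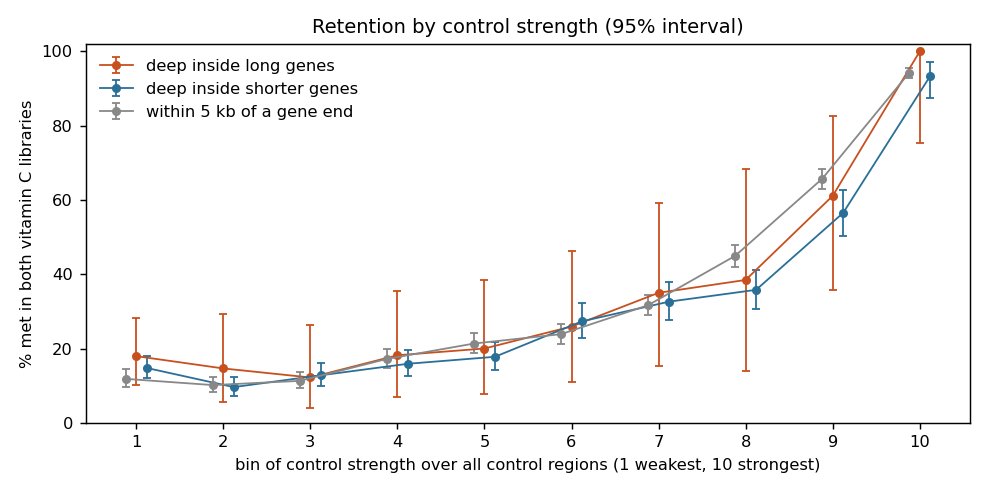
Share of control regions met by a peak in both vitamin C libraries, in percent, by bin of control strength from weakest (1) to strongest (10), for the 314 regions deep in long genes and for the comparison regions, with exact 95% intervals (counting error only). The share for long genes runs from 17.9% in the weakest bin through 12.2% in the third to 100.0% in the strongest.

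The strongest region of all lay in CLASP1, whose product tracks growing microtubule ends, at chr2:121530445-121532033. Its folds were 33.6 and 26.9 in the controls against 29.2 and 23.5 with vitamin C, from 71, 60, 72 and 43 fragments. It covers RNU4ATAC, the U4atac small nuclear RNA of the minor spliceosome. The second was in HHAT, the hedgehog acyltransferase, at chr1:210372036-210374244, with folds of 18.6 and 22.0 and then 26.8 and 19.3, over RNU5A-8P, a copy of the U5 small nuclear RNA gene. For both regions the treated folds overlapped those of the controls. Only 4 of the 314 regions covered a gene or copy of a small RNA, the other two being transfer RNA genes, TRK-TTT1-1 in ZFHX3, a transcription factor gene, and TRH-GTG1-6 in NFIB. All 4 were met in both vitamin C libraries, and this class was named after its values were seen. The NFIB region at chr9:14433573-14434228 had folds of 5.40 and 12.8, then 9.81 and 8.79.

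Other strong regions met in both treated libraries lay in genes of several roles. FRMD4A, a scaffold of cell polarity, had folds of 16.5 and 14.8 in the controls against 8.09 and 6.09 with vitamin C. CHRM3 had 12.2 and 20.3, then 12.1 and 8.50. In EPB41L4A the strongest region had 13.1 and 16.4, then 10.1 and 9.67. The treated folds were the lower numbers in these 3 genes, only just so in CHRM3, but folds of separate lists need not share a scale and no change in level is read from them. TNRC6B, an Argonaute partner in silencing by microRNAs, had 16.7 and 11.7, then 17.6 and 9.99, which overlapped. MARCHF1, a ubiquitin ligase that acts on antigen-presenting molecules, had 14.3 and 12.3, then 4.70 and 3.41. The ROBO1 region over the internal start printed above had 11.9 and 14.0, then 15.7 and 7.68. The second SLIT2 region, at chr4:20379610-20381116, had 14.3 and 11.0, then 9.81 and 5.92. Among these 10, which were chosen for a peak in both treated libraries, MARCHF1 had the lowest treated folds.

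The strongest regions met in neither treated library were weaker in the controls. The first was in ACYP2, the muscle-type acylphosphatase, at chr2:54114825-54115146, with folds of 9.36 and 9.73 from 16 and 17 fragments, 469 bp from an annotated start. MLLT10, a partner of the histone methyltransferase DOT1L, had 9.09 and 8.11. SPON1, a matrix protein of axon guidance, had 8.81 and 7.13, and CREB5, a transcription factor binding cAMP response elements, 7.16 and 8.65. These 4 stood on 12 to 17 fragments in each control, against a median of 28 for regions met in both. ZFAT, a zinc finger protein, had 9.35 and 6.91. ADK, adenosine kinase, had 9.19 and 7.01, and the readthrough gene LINC02210-CRHR1 had 6.53 and 10.6. The other 3 of the 10 lay in SLIT2, at chr4:20285431-20286785, chr4:20411579-20412055 and chr4:20383863-20385431.

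**Figure D4:**
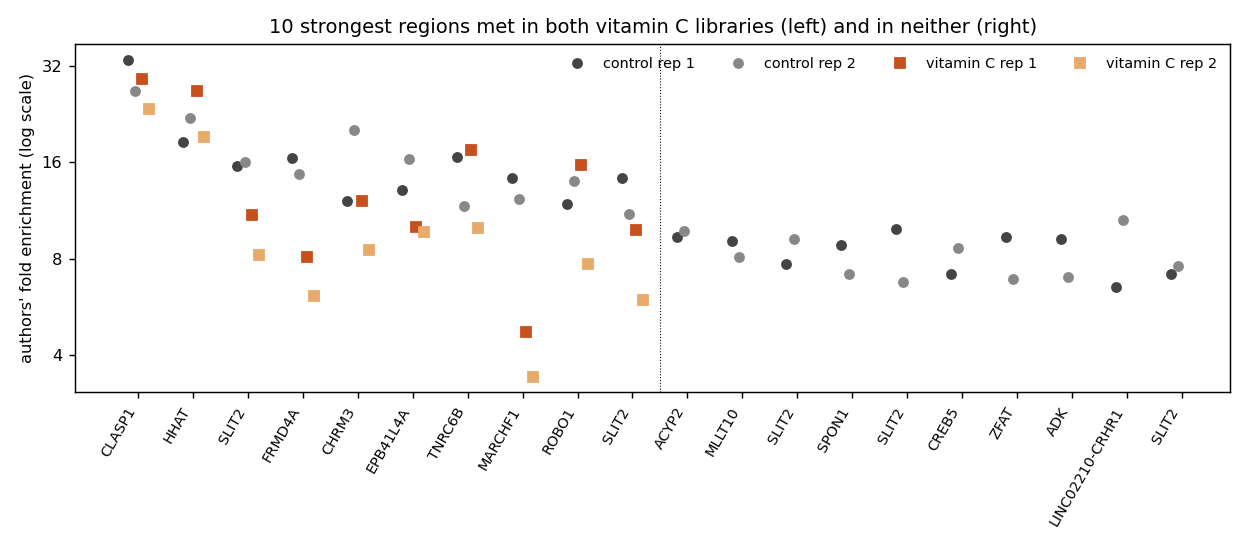
Authors' fold (log axis) in the 4 labelled libraries at the 10 strongest control regions that both vitamin C libraries also held and the 10 strongest that neither held. The folds of CLASP1 are 33.6, 26.9, 29.2 and 23.5, while the regions met in neither have control folds of 6.53 to 10.6 and no treated value.

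Host genes with several regions differed in what the treated libraries held. In MTHFD1L, a mitochondrial enzyme of folate metabolism, 5 of 6 regions were met in neither library and 1 in a single library, and its deep peaks numbered 14 and 11 in the controls against 1 and 1 with vitamin C. GMDS, an enzyme of GDP-fucose synthesis, had 1 of 6 regions met in both, 3 in 1 and 2 in neither, with 9 and 8 peaks against 4 and 2. ANKRD11 had 5 regions, 1 met in both, with 19 and 13 peaks against 3 and 2. Both control counts exceeded both treated counts in 11 of the 12 leading hosts, and in 69.3% of the 228 long genes with deep peaks in both controls, so nothing about single hosts is read from this. The exception among the 12 was EPB41L4A, with 5 and 5 peaks in the controls against 4 and 6 with vitamin C. GSE1, which encodes a coiled-coil protein, HSD17B12, an elongation enzyme of fatty acids, and CREB5 had 4 regions each and none met in both. RNF220, a ubiquitin ligase, EIF4G3 and ROBO1 had 4 each with 1 met in both. In all, 55 of the 155 hosts had at least 1 region met in both treated libraries, and 64 had all their regions met in neither. As 97 hosts held a single region and no like count is given for shorter genes, nothing particular to long genes is read from these counts.

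**Figure D5:**
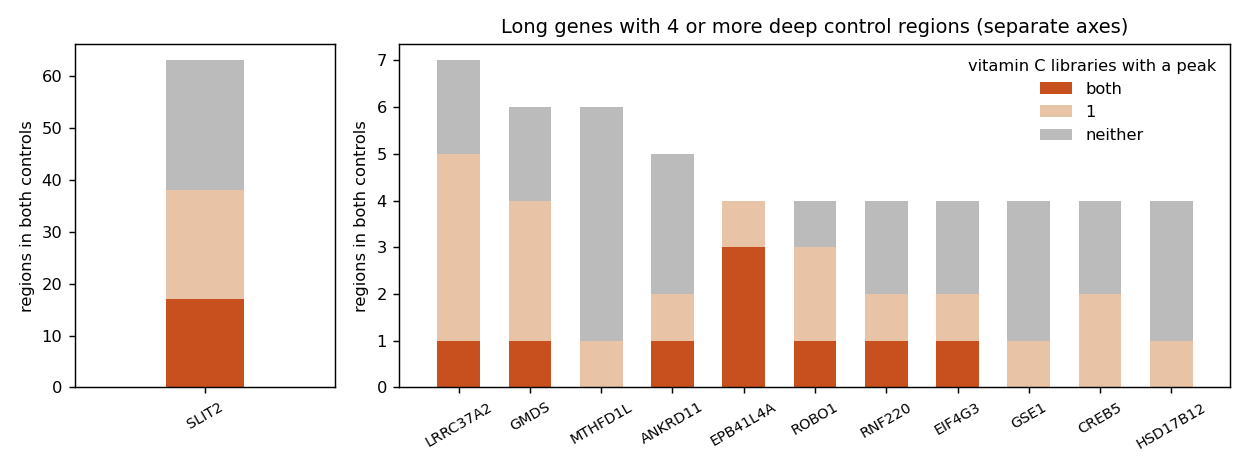
The 12 long genes with the most deep regions, with the number of their regions met by a peak in both, in 1 and in neither vitamin C library, stacked, with SLIT2 on an axis of its own. SLIT2 has 17, 21 and 25, MTHFD1L 0, 1 and 5, and EPB41L4A 3, 1 and 0.

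By role, regions in genes of transcription and chromatin were met in both treated libraries in 13 of 37 cases, RNA binding genes in 4 of 10 and cytoskeleton and scaffold genes in 5 of 8, among them CLASP1 but not DLG1, a scaffold of cell junctions. Signalling genes had 4 of 10, including TRIO, a guanine nucleotide exchange factor, and not IGF1R, the insulin-like growth factor receptor. Ubiquitin and trafficking genes had 4 of 11, including AGAP1, a GTPase-activating protein. Adhesion and guidance genes had 18 of 68, nearly all of these regions being in SLIT2, channels and receptors 1 of 4, and fragile site genes 0 of 3. Regions in genes on no list were met in both in 31 of 161 cases, beside 80 of all 314.

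Retention was also read by gene length and by position. The share met in both was 26.7% of 116 regions in genes of 200 to 300 kb, 26.4% of 140 in genes of 300 to 500 kb and 20.7% of 58 in longer ones. By distance from the nearest gene end it was 28.6% of 77 regions at 5 to 20 kb, 21.7% of 69 at 20 to 50 kb, 20.6% of 63 at 50 to 100 kb and 28.6% of 105 beyond. The farthest was a ROBO2 region 610.96 kb from any gene end, with folds of 4.37 and 4.84 and no treated peak. Next came 3 regions of ROBO1, at 422.45, 420.38 and 384.57 kb, and the ZFHX3 region at 413.60 kb. The 5 widest lay in SLIT2 (2619 and 2574 bp), TSPEAR (2534 bp), EPB41L4A (2506 bp) and HHAT (2209 bp), and all 5 were met in both treated libraries. At annotated starts, 6 of 23 regions were met in both and 13 in neither, and away from them 73 of 280 and 138. Of the 24 hosts whose annotated end carried a peak in each control, 4 had one in each treated library, beside 29.6% of the 135 long genes with such peaks.

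Regions just inside and just outside the limits of the choice were set side by side. Among the shortest hosts were CCDC30 (201.08 kb, 1 region) and COL5A1 (203.04 kb, 2), and the longest genes just short of the limit SLC35D4 (199.44 kb), ASAP2 (198.87 kb) and CECR2 (198.20 kb) had 1 deep region each. None of the regions in these 5 genes was met in both treated libraries. Nearest to the limit of distance, regions in ST3GAL3 (5.075 kb), ANKRD11 (5.274 kb) and SPON1 (5.290 kb) were inside and those in ABI3BP (4.940 kb) and TNRC6B (4.860 kb) outside. Of these 5 regions, that of ANKRD11 alone was met in both.

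Read from the treated side, 87 merged regions deep in long genes were found in both vitamin C libraries, 18 of them in SLIT2. Of these, 82 (94.3%) were overlapped in both controls, compared with 94.4% of all regions of both vitamin C libraries and 89.5% in shorter genes. A further 4 were in 1 control, in ST3GAL3, a sialyltransferase gene, DENND5B, TNRC6A and TENM1, which encodes a teneurin adhesion protein. The single region in neither control was in SLIT2, at chr4:20343213-20343425, with folds of 6.24 and 5.87. Among regions shared by both treated libraries, few in long genes were thus lacking in the controls, as among all such regions. The control lists were also the longer ones. Deep peaks of a single treated library were not looked up in this way. Only 89 of 199 deep peaks in vitamin C replicate 1 and 88 of 209 in replicate 2 met the other treated list.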

How the data were processed

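KAS-seq libraries of HEK293T cells were compared as deposited peak lists, 2 control and 2 vitamin C. Build hg38, MACS2 2.2.7.1, Bowtie2 2.4.5, deepTools, cutadapt, Trim Galore and bcl2fastq 2.19 are named in the submitters' processing notes, whose order and settings were not given in the sources used. The deposited lists give each peak's position, the authors' fold enrichment (a ratio), −log10 p and −log10 q (highest q 0.00999), a display score of the authors and a summit offset. A fold is the peak's own value and ranked peaks within its list. Folds of separate lists are set side by side, and their medians compared, as a description without a common scale. Peaks on other sequences (4.23% to 5.06% of a list) were left out.

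Regions were merged and matched with an overlap of at least 1 bp, and genes, starts and promoter sequences came from RefSeq tables of GRCh38.p14. Whole fragments per summit were solved from fold and p. Libraries were compared by exact two-sided permutation, retention by exact sign-flip over the 2 treated libraries, and shares have Clopper-Pearson 95% intervals. Python 3.11.15, pandas 2.3.3 and scipy 1.17.1 were used, and the counts were tested on simulated lists.

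The regions and gene lists were chosen with earlier results of these data known. The named genes were the 12 hosts with most regions, the 10 strongest regions met in both and in neither treated library, the 5 widest, the 5 farthest from gene ends, and up to 2 hosts per list, some of which are not reported here. Alternatives changed thresholds, list length, overlap, position, gene length, distance and libraries.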

Additional observations from a re-analysis of the deposited data

How the results depend on the processing

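With lists of equal length (9816 peaks each) most results changed, and 81 regions were left. The cause was not tested. The log2 ratios of peak number and of genes became 0.131 and 0.196, the difference in share 0.178 points, in width -96.0 bp and in fold -2.31. There, 66.7% of regions were met in both treated libraries, 11.1% in neither, and the difference from gene ends was 0.624 points. With −log10 q of at least 5, the fold difference was -0.059 and 43.0% were met in neither. With 50% of a region to be covered, 14.3% were met in both and 65.6% in neither. With genes of at least 100 kb, the differences were -5.50 bp in width, -0.006 in fold and -2.97 points from shorter genes. With genes of at least 500 kb they were -52.75 bp and -1.79 points, and 20.7% were met in both. With more than 1 kb from gene ends they were -2.25 bp and -4.17 points, and by summit position the width differed by -0.25 bp. Leaving out SLIT2, chosen after seeing the data, gave -1.44 points from shorter genes.

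With 1 library left out at a time, the log2 ratios ran from -2.13 to -1.82 for number and -1.46 to -1.28 for genes, and differences from -0.934 to -0.850 points in share, -15.25 to 15.75 bp in width and -0.012 to 0.436 in fold. The share met in both ran from 9.40% to 38.5%, that met in neither from 61.5% to 77.1%, the difference from shorter genes from -5.34 to 2.36 points, and that from gene ends from -19.8 to -8.91 points. With 1 control left out, single peaks of the other were counted, and with 1 treated library left out, 1 overlap sufficed. With the replicate number as a block, the log2 ratio of number was -1.97 and the other differences changed no direction. Same-numbered libraries did not vary together over 155 hosts (r = -0.031), so the numbers were not taken as pairs. All other alternatives run, including regions away from annotated starts (chosen after seeing the data), kept direction, and no exact p could go below 0.333 with 2 libraries per group.

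A peak list holds no region below its threshold, so a region met in neither treated library has no value there, not a value of 0. The median region rested on 17 fragments in each control, and input coverage was not analysed here.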
